A study of Drosophila melanogaster with 12 samples.

Results

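Polycomb binding was compared between the whole larval central brain and the glia of that brain in Drosophila melanogaster, over the GATC fragments that carry a score in both profiles. These were 114601 of the 356504 fragments of the deposited table, 32.1%, and they held 93.5% of the 122591 fragments scored in brain and 58.4% of the 196103 scored in glia. Each profile was set to its own median over all its scored fragments, and fragments or stretches were then described by brain minus glia.

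Polycomb is the chromodomain subunit of Polycomb repressive complex 1, which binds nucleosomes trimethylated at lysine 27 of histone H3 and keeps developmental regulators silent once they have been switched off. In the nervous system its targets include the Hox complexes, the segmentation genes and many of the transcription factors that give neurons and glia their identity. In DNA adenine methyltransferase identification (DamID), the bacterial methylase Dam is fused to Polycomb and marks GATC sites near its binding places, while unfused Dam, measured in parallel, shows where chromatin is open to the enzyme.

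The comparison rests on 8 libraries, 2 each of Dam-Polycomb and Dam only per profile, from late, wandering larvae of the last instar raised at 25 °C, with 20 larvae per sample and the ventral nerve cord removed. The brain libraries came from y,w males with the transgene FL.hsp70P-Dam[4-HT-intein@L127C], with or without PC (Polycomb) joined to it. This Dam carries a tamoxifen-dependent intein and was left uninduced. Each brain Dam-only replicate had 3 technical replicates. The glial libraries came from y,w/w males and females pooled, which carried repoFlp5 and min.hsp70P-STOP#1-Dam, again with or without PC. There a recombinase driven by repo, the gene of a glial homeodomain factor, removes a stop cassette before Dam. Every construct sat at 1 landing site, labelled ZH51C, under a heat shock promoter, full in brain and minimal in glia. Cell population, Dam system and sex therefore changed together and cannot be told apart. Glia are themselves among the cells of the whole brain, and a lower score does not separate fewer cells with Polycomb from less Polycomb per cell.

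The deposited values are log2 ratios of Dam-Polycomb to Dam only, averaged over the replicates by the authors, so there is 1 value per fragment and profile, no error between animals and no test. The read depth behind them is unknown. The SDs below describe how single fragments scatter within a stretch, not how animals vary. The medians removed were -1.24 in brain and -0.60 in glia, and all scores below are on the log2 scale above those medians.

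Over single fragments the differences were balanced around 0, with more fragments far apart in the direction of the brain. The median of brain minus glia was -0.05, with quartiles of -1.32 and 1.37, and it ran from -9.76 to 11.59. Brain was over 1 higher at 35149 fragments (30.7%) and glia at 35427 (30.9%). Without centring these counts were 24534 for brain and 50160 for glia, so the balance rests on the medians removed. Brain was over 2 higher at 19742 fragments (17.2%) and glia at 16631 (14.5%). Brain was over 4 higher at 5131 fragments and glia at 1555.

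As centred, the 5131 and 1555 fragments differed in level, but that contrast followed the scale of the profiles. At the 5131 fragments over 4 higher in brain, medians were 5.67 for brain and 0.27 for glia, and 93.5% had a brain score of at least 2. At the 1555 fragments over 4 higher in glia, the median was -3.17 in brain and 1.48 in glia, and 39.5% had a glial score of at least 2, while 72.5% had a brain score under -2. With both profiles at equal SD (each divided by its own SD and multiplied by the mean of both), a check added after these values were seen, 3565 fragments were over 4 higher in brain, 74.0% of them with a brain score of at least 2, and 1588 over 4 higher in glia, 77.4% with a glial score of at least 2. After quantile normalization, which gives both profiles one distribution, these were 3205 fragments with 76.1% and 1917 with 81.4%. The fragments were chosen by their difference, so these shares describe them. The largest single difference was on 3R from 14082975 to 14083626 (dm3), with 8.42 in brain and -3.17 in glia. The largest in the other direction was on 3R from 15576058 to 15578367, with -5.81 in brain and 3.95 in glia.

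**Figure D1:**
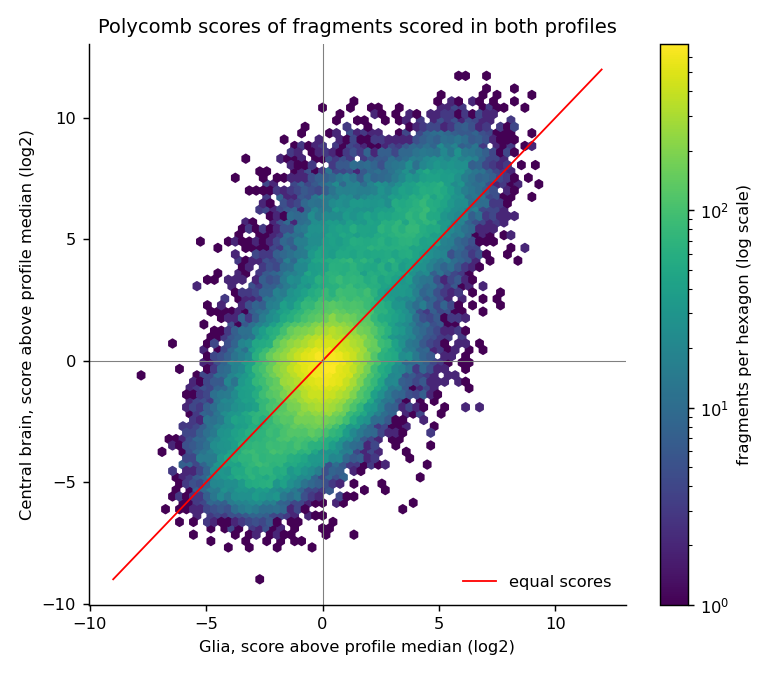
Score in central brain (vertical) against score in glia (horizontal) for the 114601 fragments scored in both profiles, each as log2 above its profile median; colour gives the number of fragments per hexagon on a log scale and the red line marks equal scores. A cloud around 0 holds most fragments, an arm of fragments high in both profiles lies above the line, and a group high in brain near the glial median has no counterpart of that size below the line.

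High glial scores were accompanied by high brain scores more often than the reverse. Of the 10862 fragments with a glial score of at least 3, 83.0% had a brain score of at least 3 and 3.71% lay below the brain median. Of the 18532 fragments with a brain score of at least 3, 48.7% reached 3 in glia and 10.4% lay below the glial median. These shares compare lists of unequal size, because the brain profile has the wider range (SD over fragments 2.82 in brain and 2.02 in glia). With equal lists, the top 10% of each profile (11460 fragments), 63.9% of each list was shared. The shared part was 53.8% for the top 5% and 61.7% for the top 20%. At 10%, 17.8% of the fragments in the brain list alone lay below the glial median and 11.3% of those in the glial list alone lay below the brain median. At 20% the order turned, with 35.2% for the brain list and 38.9% for the glial list.

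The difference changed with level, and how it did so depended on the scale of the profiles. Fragments whose mean of both scores was under -3 had a median difference of -1.11, and 25.4% of these 5936 were higher in brain. Between 0 and 1 the median was -0.28. From a mean of 2 to 3 upward it was 1.58 or more, and of the 5671 fragments over 5, 90.4% were higher in brain, with a median of 2.13. When both profiles were given the same SD, the median difference over 5 became -0.01, but the medians of other levels still ran from -0.59 at 1 to 2 to 0.98 at 3 to 4. Quantile normalization, which removes such a trend by construction, left medians between -0.29 and -0.03 at all levels. The excess of brain at fragments high in both profiles therefore depends on the scale of the profiles.

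**Figure D2:**
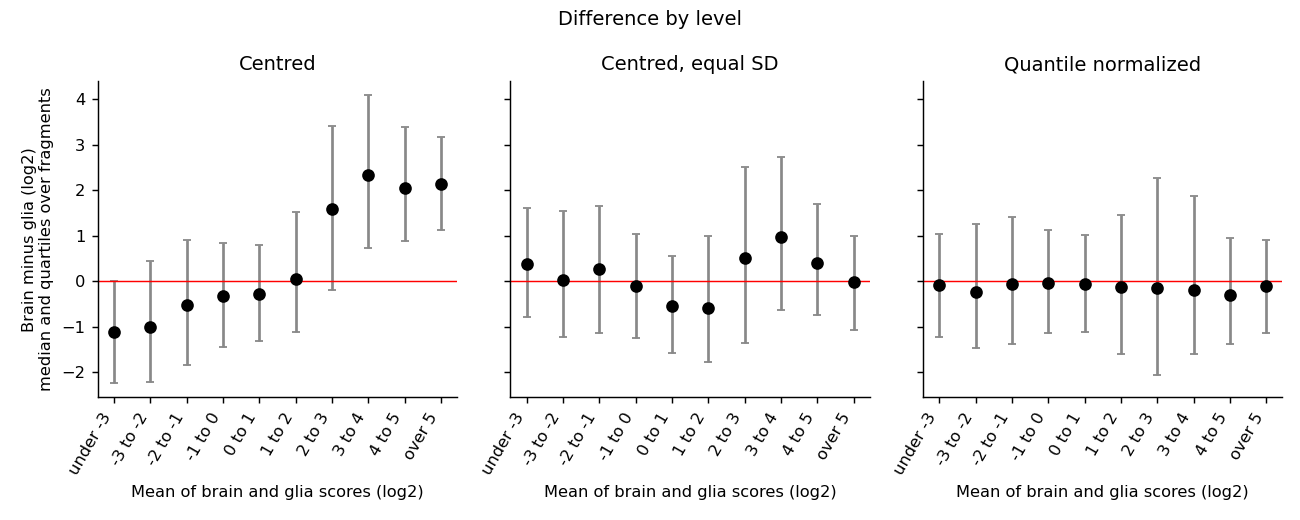
Brain minus glia (log2, vertical) by the mean of both scores (log2, horizontal), as centred scores, with both profiles at equal SD, and after quantile normalization; points are medians and bars quartiles over fragments. Centred differences run from -1.11 at the lowest level to 2.13 at the highest, and the trend is absent after quantile normalization.

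Neighbouring fragments of the same sign were joined into runs, which a gap of over 10 kb or a change of arm also ended. There were 28953 runs, and 48.3% of the brain-higher and 41.1% of the glia-higher ones were single fragments. Runs of at least 10 fragments numbered 2554 and held 45.2% of the fragments. Of these, 1130 were higher in brain (20.3 Mb in all, median length 13.1 kb) and 1424 higher in glia (26.5 Mb, median 15.6 kb). Without centring 735 were higher in brain and 2023 higher in glia. The longest brain-higher run had 218 fragments and the longest glia-higher run 79, and runs of at least 50 fragments numbered 102 and 24. The scatter of a run mean, from its odd and even fragments, was 0.19 in each profile. Odd and even fragments are neighbours from the same libraries. What they share cancels, so this value leaves out any error common to a run.

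The runs fell into 5 kinds by their mean levels. Both profiles were at least 2 above their medians in 304 runs, of which 289 were higher in brain and 15 in glia. Brain was at least 2 and glia under 1 in 172 runs (6.73% of the 2554), called brain-not-glia here, and glia was at least 2 and brain under 1 in 77 (3.01%), called glia-not-brain. The other 1448 low and 553 intermediate runs held most of the glia-higher ones, 1014 and 318. In 67 of the 172 brain-not-glia runs the glial mean was below the glial median, and in 21 of the 77 glia-not-brain runs the brain mean was below the brain median. For comparison, the median glial mean of all 1130 brain-higher long runs was -0.19. The median brain mean of all 1424 glia-higher ones was -1.32.

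Scale separated these kinds. Over the same fragments after quantile normalization, the median difference in runs high in both profiles was 0.10, against 2.12 before, and 39 of 304 were still over 1 higher in brain. In the brain-not-glia runs it was 2.77, against 3.43 before, and 171 of 172 stayed over 1. In the glia-not-brain runs it was -2.64, against -2.06 before, and all 77 stayed past -1. Because brain and glial levels chose these kinds, the counts describe them and test nothing.

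**Figure D3:**
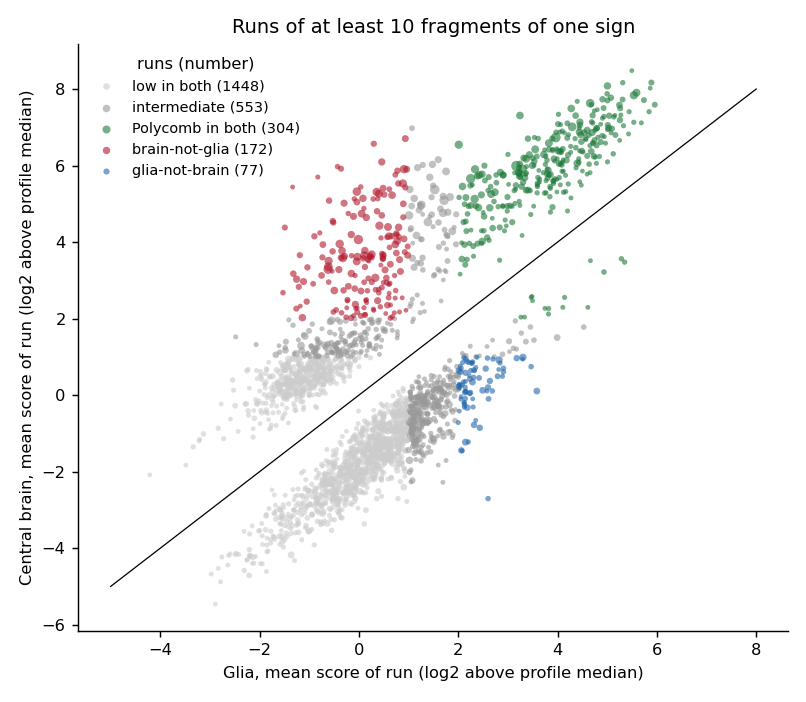
Mean score of each of the 2554 runs of at least 10 fragments in central brain (vertical) and glia (horizontal), as log2 above the profile median; point area grows with the number of fragments, colours give the kind of run, and the line marks equal scores. The 172 runs in red are the brain-not-glia ones, with glial means under 1, and the 77 in blue the glia-not-brain ones.

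The fat body profile, which took no part in the rule, was near its own median in the brain-not-glia runs, as it was over all long runs. It comes from males with the same Dam system as the brain, there induced with 25 uM 4-hydroxytamoxifen, and from 10 larvae per sample. It was scored at 92822 of the shared fragments. Its median over the 172 runs was 0.33 (quartiles -0.15 and 1.02), with 12 runs at 2 or more and 126 under 1, which is 73.3%. That share is near the 67.2% of all 2554 runs, whose median fat body score was 0.45 and of which 13.0% were at 2 or more. In the 77 glia-not-brain runs its median was 1.14, with 18 at 2 or more and 35 under 1. Over the 304 runs high in brain and glia it was 2.84, and 216 of them were at 2 or more.

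The 12 brain-higher runs with the largest summed difference had 94 to 218 fragments and covered up to 134 kb each. Mean brain scores were 3.29 to 6.73 and mean glial scores -0.62 to 3.96. Of the 12 runs, 7 were brain-not-glia, 3 were high in both and 2 intermediate. The first lay on X from 20497913 to 20631866 and holds run, the pair-rule gene of a Runt-domain transcription factor. Its 166 fragments had means of 5.37 ± 1.53 in brain and 1.53 ± 1.40 in glia (SD over fragments). Beside it on X, the run from 20401753 to 20494027 averaged 5.31 in brain and 0.36 in glia. A run of 102 fragments on 3R from 9868705 to 9928701 averaged 5.32 ± 1.56 in brain and -0.04 ± 1.04 in glia, with a fat body mean of 0.05. On 3R from 26428415 to 26541051, 152 fragments had 4.07 in brain and -0.01 in glia, and that on 3R from 7070183 to 7155689 averaged 5.91 in brain and 0.91 in glia. The longest run by fragments, on 2L from 3529681 to 3649760, holds the pair-rule gene odd and was high in both profiles, at 5.99 in brain and 3.17 in glia.

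The 10 brain-not-glia runs with the largest mean difference were short, 8.09 to 38.4 kb, and differed by 5.41 to 6.77. After quantile normalization these differences were 4.55 to 6.13. Brain means ran from 4.38 to 6.70 and glial means from -1.49 to 0.93. Fat body was under 1 in 9 of the 10, against 73.3% of all brain-not-glia runs and 67.2% of all long runs. On 2R from 5335461 to 5345414 the scores did not overlap: the 17 fragments had 3.85 to 8.14 in brain (median 5.94) and -3.66 to 0.84 in glia (median -0.23). In the other 9 runs some glial scores lay above the lowest brain score. These runs were chosen by their difference and hold 1 sign by construction, which favours such separation. Its share over all long runs was not counted. On X from 12505366 to 12525762, for example, 30 fragments had -2.11 to 10.79 in brain (median 7.19) and -5.28 to 3.77 in glia (median 0.34), and 28 of the 30 had a brain score of at least 2 against 2 in glia. Over all shared fragments these shares were 20.6% in brain and 15.8% in glia. The run with the largest single difference, on 3R from 14077973 to 14099842, had a median of 6.39 in brain and 0.36 in glia over 28 fragments, with means of 5.92 and -0.36.

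The glia-not-brain runs were lower in level as centred, in the profile with the narrower range (SD over fragments 2.02 in glia and 2.82 in brain). The 10 with the largest mean difference had glial means of 2.06 to 3.58 and brain means of -2.70 to 0.74, and brain was below its median in 8 of them. Their differences were -5.31 to -2.72 as centred and -5.71 to -3.50 after quantile normalization. The leading run, on 3R from 15560810 to 15580735, did not overlap between profiles: its 17 fragments had -5.81 to -0.76 in brain (median -2.30) and 0.37 to 4.73 in glia (median 2.48). Fat body had a mean of 1.17 in this run. The run on 2L from 16560271 to 16574330 did not overlap either, with at most -0.13 in brain and at least 0.80 in glia. Choice by difference favours such separation here too. The run on 3L from 3941646 to 3969361 averaged -0.85 ± 1.63 in brain and 2.43 ± 1.88 in glia over 33 fragments, with a fat body mean of -0.18, whereas on 2R from 19455698 to 19466238 fat body was high as well, at 3.99, beside 0.74 in brain and 3.47 in glia. Fewer fragments were scored in brain than in glia in 9 of these 10 runs. The same holds for all fragments, of which 122591 were scored in brain and 196103 in glia. Of the 125 fragments in the run on 2R from 13672754 to 13708641, 41 had a brain score and 80 a glial score. The 12 glia-higher runs with the largest summed difference were of still another kind, since 7 of them were low in both profiles. Their brain means were -4.18 to 0.11, and the 2 on chromosome 4 were at -3.04 and -4.18 in brain and -0.73 and -1.36 in glia.

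Loci of known developmental regulators were then read with 10 kb on both sides, for 49 loci placed on dm3 from general knowledge of its map, since the files name no genes. Brain was over 1 higher at 35 of them (71.4%) and glia at 2 (4.08%). Over all 30-kb windows with at least 10 fragments, 19.8% had such an excess in brain and 28.0% in glia. The loci are Polycomb targets, however, and 44 had a brain mean of at least 2. Of these 44, 34 (77.3%) were over 1 higher in brain, against 80.0% of all windows with a brain mean of at least 2, so the count is that of any window with Polycomb in brain. Glia was under 1 at 6 of the 44 (13.6%), against 31.1% of such windows. The median over the 49 loci was 5.17 in brain, 3.36 in glia and 1.79 for the difference. After quantile normalization 14 of the 35 remained over 1 and the median difference was 0.01, while 6 loci were over 1 higher in glia, against 5 at equal SD.

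**Figure D4:**
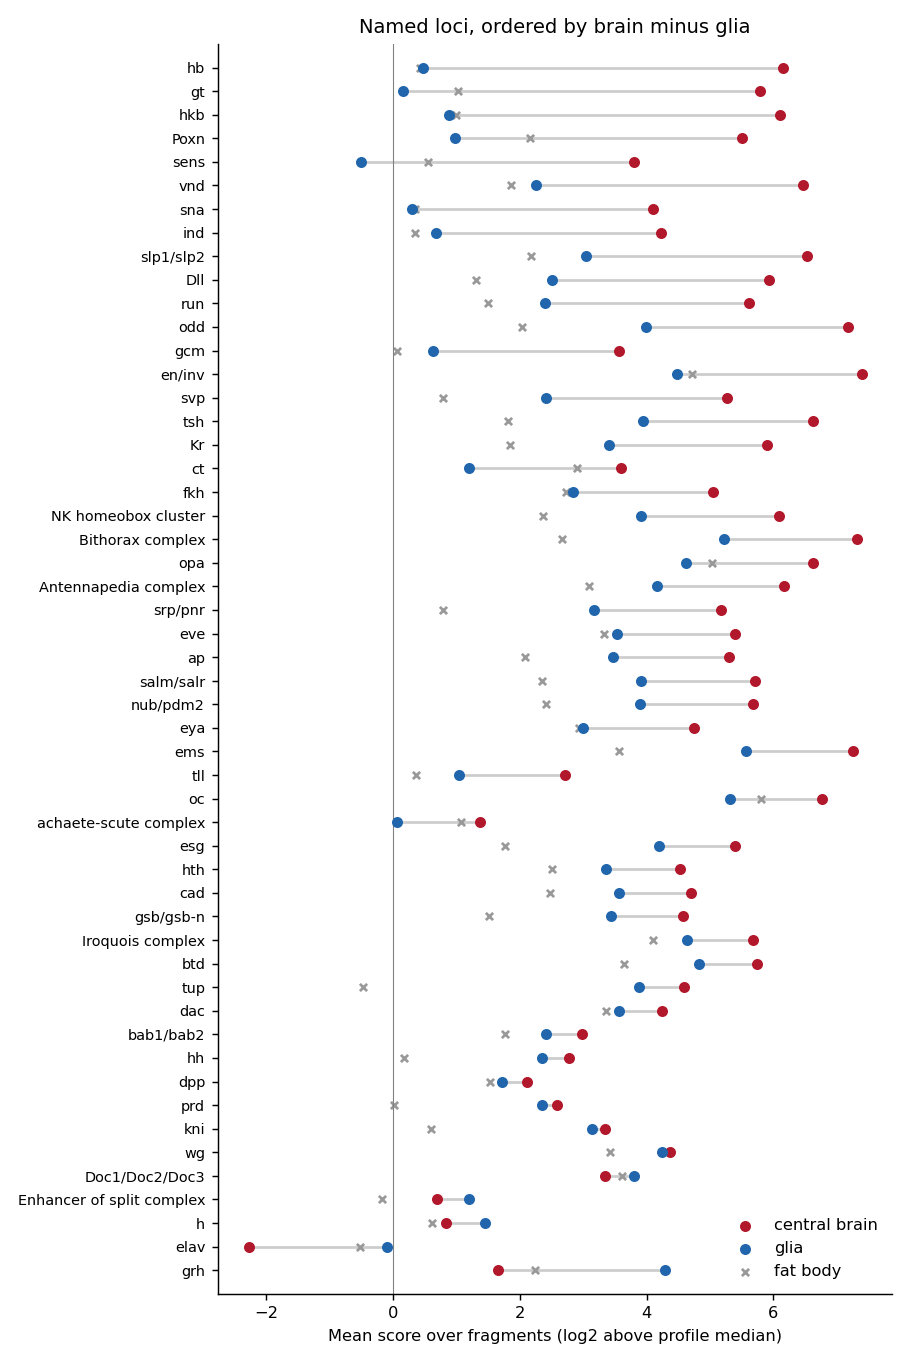
Mean score over the fragments of each named locus (the 49 loci plus svp, Poxn and sens) with 10 kb on both sides, in central brain (red), glia (blue) and fat body (grey crosses), as log2 above the profile median; loci are ordered from the largest brain excess at the top to the largest glial excess at the bottom. At hb, gt and hkb the brain mean is over 5 above the glial mean, and at elav and grh glia is over 2 higher.

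Among segmentation genes, the gap genes hb, gt and hkb had the largest excess of brain, with low glial means that were near the median at gt and hb and raised at hkb. These encode a zinc-finger factor that also times early neuroblast divisions, a leucine-zipper repressor and a zinc-finger repressor of the embryo ends. At hb, 54 fragments had -2.20 to 10.22 in brain (median 6.49) and -4.31 to 2.79 in glia (median 0.66), and brain was higher at all 54. At gt, 40 fragments had means of 5.80 ± 2.29 in brain and 0.16 ± 1.25 in glia, and brain was higher at all 40. At hkb the means were 6.11 ± 2.86 and 0.88 ± 1.56 over 54 fragments, with brain higher at 53, and the glial median was 1.29 with 13 fragments at 2 or more. Among all fragments, brain was higher at 72.7% of those with a mean of both scores from 2 to 3. From 3 to 4 that share was 84.4%. In glia, 15.8% of all shared fragments were at 2 or more. The fat body means were 0.43 at hb, 1.03 at gt and 0.99 at hkb. These 3 differences, 5.67, 5.64 and 5.23, were the largest of all named loci and were 4.62, 4.73 and 4.16 after quantile normalization.

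Other segmentation genes were high in both profiles. Of the 16 segmentation loci, 13 had an excess of over 1 in brain, none in glia, and 11 had means of at least 2 in both. Brain was at least 2 at 15 of the 16, and 80.0% of all 30-kb windows at that brain level had such an excess. The engrailed and invected pair, homeodomain factors of posterior compartments, had 7.39 ± 1.54 in brain and 4.47 ± 1.27 in glia over 129 fragments. The Kr locus, of another zinc-finger gap gene, had 5.91 in brain and 3.40 in glia, while kni, a gap gene of the nuclear receptor type, had 3.34 and 3.14. The slp1 and slp2 pair of forkhead genes had 6.53 ± 2.80 in brain and 3.05 ± 1.80 in glia, a difference of 3.48 that was 1.68 after quantile normalization. The repressor gene h averaged under 2 in both, at 0.83 in brain and 1.46 in glia. The 3 head gap loci oc, ems and btd were among the highest in glia, at 5.31, 5.57 and 4.82, beside 6.76, 7.25 and 5.74 in brain. Their differences of 1.45, 1.68 and 0.92 were -0.73, -0.52 and -0.92 after quantile normalization.

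Neural regulators went in both directions. The column genes vnd and ind, homeodomain factors that divide the embryonic neuroectoderm, were higher in brain by 4.21 and 3.54. All 93 fragments at vnd had brain scores of 2.41 to 9.69 (median 6.54), against -2.74 to 5.81 in glia (median 2.55), so the profiles overlapped there and glia was not at its median. At ind the means were 4.22 ± 2.50 in brain and 0.69 ± 0.97 in glia over 44 fragments. The achaete-scute complex of proneural genes averaged 1.37 in brain and 0.06 in glia over 182 fragments. Of these, 59 were at 2 or more in brain and 3 in glia, against 20.6% and 15.8% of all shared fragments. The LIM-homeodomain gene tup averaged 4.59 in brain and 3.89 in glia, with a fat body mean of -0.47. The Enhancer of split complex, which holds Notch target genes, had 0.69 in brain and 1.20 in glia.

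The elav locus, of an RNA-binding protein made in neurons, was low in brain and at the median in glia. Its 28 fragments had -5.21 to 0.63 in brain (median -2.44) and -3.90 to 2.91 in glia (median -0.13), with glia higher at 25 of them. Brain was higher at 10.7% of them, against 40.2% of all fragments with a mean of both scores from -2 to -1. The mean difference of -2.19 was -1.94 after quantile normalization, and the fat body mean was -0.51. No fragment of the 28 reached 2 in brain and 4 did in glia, where 15.8% of all shared fragments did. In brain 20.6% of all shared fragments did.

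At gcm, whose transcription factor starts glial fate in the embryo, Polycomb was higher in brain than in glia. Over the 79 fragments of the locus window the means were 3.56 ± 3.16 in brain and 0.63 ± 1.58 in glia. An overlapping run of 89 fragments on 2L from 9576890 to 9613559 averaged 5.53 ± 1.50 in brain and 0.89 ± 1.19 in glia, with 0.81 in fat body, and the difference of 4.65 was 3.55 after quantile normalization. In the 10-kb stretches beside this run of 89 fragments the means were -1.46 in brain and -1.07 in glia. The glial score was thus 1.95 higher inside than beside the run. A step in both profiles was also seen at the hb run on 3R from 4501948 to 4540341, where brain was 8.96 and glia 2.38 above the flanks, and at the hkb run on 3R from 161622 to 187253, where brain was 6.65 and glia 1.93 above them. Elsewhere among the brain-higher locus runs compared, the glial step was 2.72 at Dll, 0.96 at sens and 0.64 at slp1/slp2. It was 0.63 at vnd, 0.63 at run, 0.50 at gt, 0.12 at Poxn, -0.06 at ind, -0.58 at svp and -1.10 at sna. Over 171 brain-not-glia runs with at least 5 fragments in those flanks, brain was above its flanks in 157 (median 2.40) and glia in 75 (median -0.14). Over all 2534 runs with such flanks the shares were 51.1% for brain and 56.7% for glia, against 91.8% and 43.9% in the brain-not-glia runs. The run edges follow the sign of the difference, which itself favours a brain step there.

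**Figure D5:**
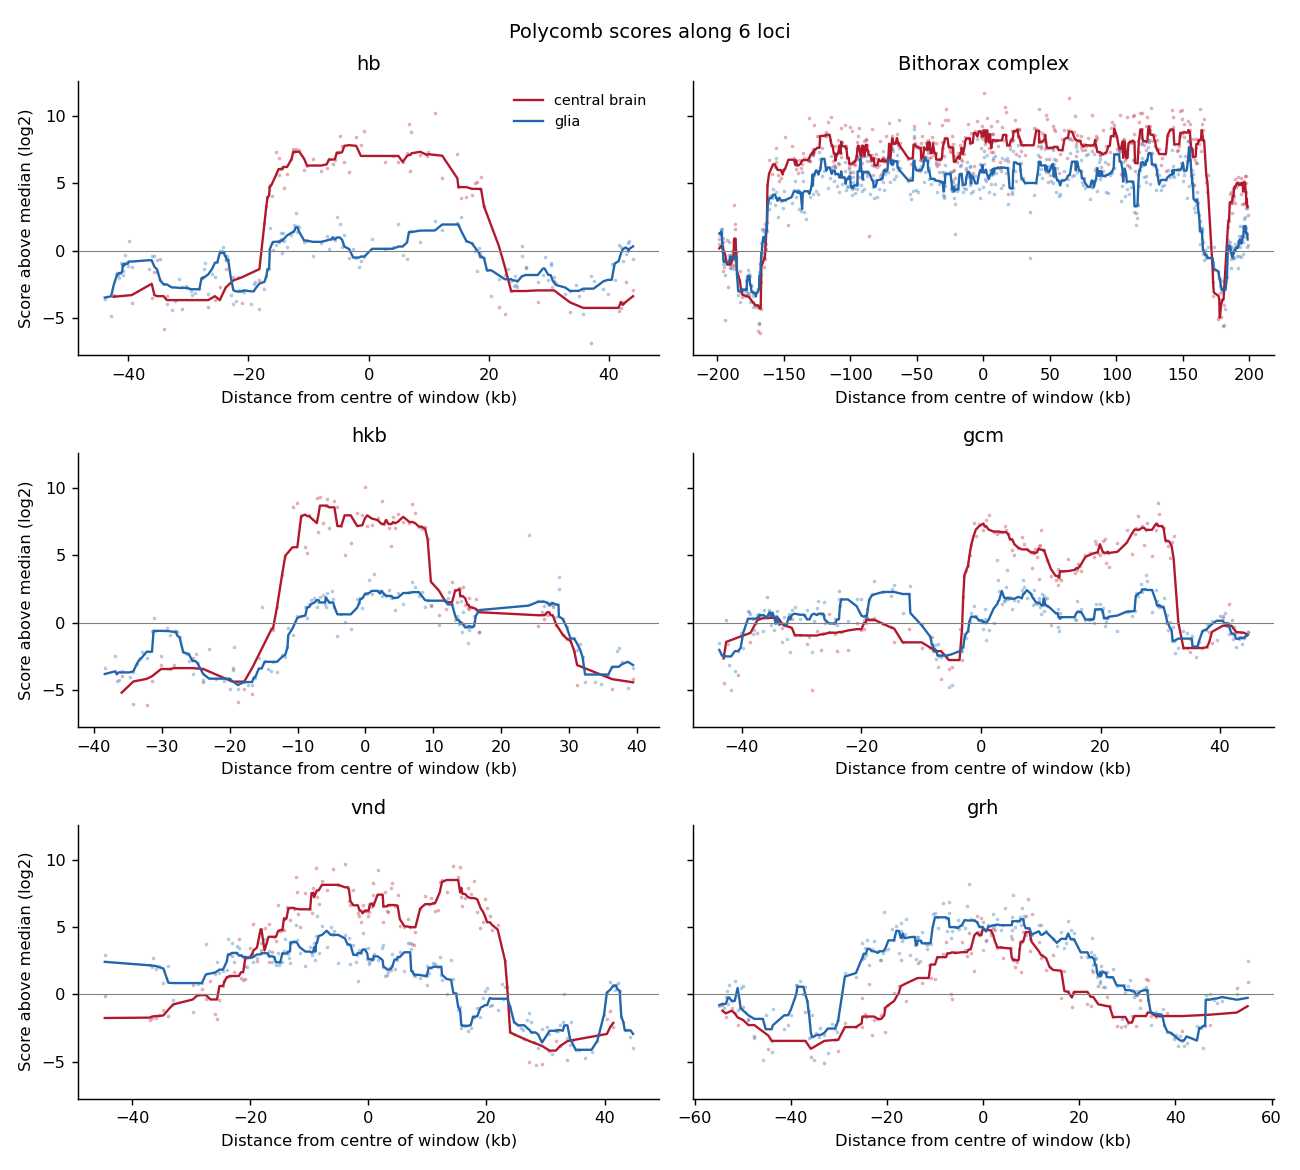
Scores of single fragments (points) and their running median over 7 scored fragments (lines) in central brain (red) and glia (blue) along 6 loci, as log2 above the profile median against distance from the centre of each window in kb. At hb, hkb and gcm the brain forms a plateau and glia a much lower step, at vnd both are raised with brain higher, along the Bithorax complex both stay high with brain about 2 above glia, and at grh glia is the higher profile.

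The Hox complexes were among the highest loci in both profiles. The Bithorax complex, which patterns the posterior thorax and abdomen, had 7.32 ± 2.38 in brain and 5.23 ± 1.90 in glia over 400 fragments, and brain was higher at 379. The Antennapedia complex, which patterns the head and anterior thorax, had 6.17 ± 1.95 and 4.16 ± 1.84 over 516 fragments, with brain higher at 468. These shares, 94.8% and 90.7%, were near those of all fragments at such levels. Brain was higher at 90.4% of fragments with a mean of both scores over 5 and at 88.3% of those from 4 to 5. The differences of the 2 complexes, 2.10 and 2.01, were 0.01 and 0.07 after quantile normalization. Within them abd-A had 8.43 in brain and 5.89 in glia, Abd-B 8.06 and 5.75, Ubx 7.15 and 5.14, Scr 6.52 and 4.45, and Antp 6.65 and 4.68. The differences of the 7 Hox genes read ran from 1.45 at Dfd to 2.57 at lab, a range of about the size of the SDs over fragments, which were 1.07 to 1.55. Fat body was lower at abd-A (1.78) than at lab (4.61).

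The ligand genes had nearly equal scores. At wg, the founding Wnt gene, 72 fragments had 4.37 ± 1.89 in brain and 4.24 ± 1.37 in glia, and brain was higher at 37 of them. That is 51.4%, against 88.3% of all fragments with a mean of both scores from 4 to 5. The differences at dpp, a BMP ligand, and hh, the Hedgehog ligand, were 0.38 and 0.42. After quantile normalization the 3 differences were -1.64 at wg, -0.38 at dpp and -0.81 at hh.

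Of the 18 other selector loci, 14 had an excess of over 1 in brain and 1 in glia, and 15 had means of at least 2 in both. Brain was at least 2 at 17 of the 18, and 80.0% of all 30-kb windows at that brain level had an excess of over 1 in brain. The largest brain excess was at sna, a zinc-finger gene of mesoderm and neuroblasts, where 49 fragments had 2.02 to 6.70 in brain (median 4.10) and -1.95 to 2.44 in glia (median 0.21), and brain was higher at all 49. Among all fragments with a mean of both scores from 2 to 3, brain was higher at 72.7%. The limb gene Dll followed, with 5.93 ± 1.86 in brain and 2.51 ± 1.35 in glia. For ct, a homeobox gene, the brain mean was 3.60, the glial mean 1.20 and the fat body mean 2.90. The Doc1, Doc2 and Doc3 cluster of T-box genes had 3.34 in brain and 3.80 in glia, a difference of -0.46 that was -1.89 after quantile normalization and -1.70 at equal SD, and the Iroquois complex had 5.68 and 4.63. Of 3 loci named after run values were seen, the nuclear receptor gene svp had 5.27 in brain and 2.41 in glia, the paired-domain gene Poxn of the sensory organs 5.51 and 0.98, and the zinc-finger gene sens of sensory precursors 3.80 and -0.50.

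The grh locus was the one with over 2 more in glia while carrying Polycomb there. It encodes the Grainy head factor of epidermis and neuroblasts. Its 79 fragments had -2.98 to 7.09 in brain (median 2.05) and 0.13 to 8.20 in glia (median 4.63), and glia was higher at 72. Brain was higher at 8.86% of them. Among all fragments that share was 72.7% at a mean of both scores from 2 to 3 and 84.4% from 3 to 4. Brain averaged 1.66 ± 2.52, glia 4.30 ± 1.52 and fat body 2.24, and the difference of -2.63 was -3.90 after quantile normalization. The glia-higher run on 2R from 13672754 to 13708641 overlaps this locus, with means of 0.11 in brain and 3.58 in glia over 41 fragments.

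By chromosome, the median difference was small on the large arms, from -0.21 on 2R to 0.13 on 2L, with -0.11 on X. X, where the males of the brain libraries have 1 copy and the pooled glial larvae a mixture, held 41 of the 172 brain-not-glia runs. They were 10.1% of its 405 long runs, against 6.73% over all 2554. The share was 4.97% on 2L, 4.81% on 2R, 8.12% on 3L, 5.96% on 3R and 10.0% of the 30 on chromosome 4. X also held 16 of the 77 glia-not-brain runs, 3.95% of its long runs, against 3.01% over all. Chromosome 4 had a median of 0.40 with a wide spread (quartiles -1.61 and 2.34), and 45.0% of its 1130 fragments had a brain score of at least 2, against 25.1% for glia. The part of sex or of the Dam system in these values was not tested.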

How the data were processed

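Dam-Polycomb and Dam-only DNA was amplified from methylated fragments, sheared and sequenced, per the labels' protocols. Of the tools and builds, cutadapt, Bowtie2, HTSeq and dm3 are named in the submitters' processing notes, with no tool version. For each GATC fragment the authors deposited a log2 score of Dam-Polycomb over Dam only, as a mean of 2 replicates, per the file headers and the submitters' description of the design. That the logarithm has base 2 was checked from spacing: fragments at log2 steps from the most frequent score numbered 1301 in brain and 2949 in glia, against at most 74 and 309 at steps of other bases (tolerance 0.0011). Depth is unknown and no test was run.

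Computed here with Python 3.11.15, pandas 2.3.3 and numpy 2.4.6 were the centred scores, their differences, runs of one sign (ended by gaps over 10 kb, at least 10 fragments kept) and locus means. The run caller was tried on simulated shifts without the break at gaps, and the pass mark covered only the form with a running median. That trial does not measure the error of the runs reported here. Coordinates are dm3, counted from 1. The files pair no genes with positions, and no annotation of release 5 was used here. Locus windows were written from memory, with the release 6 starts of the genes in the RefSeq table in view. A start recalled earlier for 1 gene of each locus then had to lie within 20 kb of the median shift of its arm between the releases. That tolerance was set after the deviations were seen. It kept 49 of 55 loci and left out repo, Dr, pros, mid/H15, bi and vvl. The start tried for repo had been reasoned from an earlier result of these data. For gsb/gsb-n and srp/pnr, 1 recalled gene passed and the other did not. The svp, Poxn and sens loci were picked from 31 further genes recalled after run values were seen, because they passed and overlap large runs. They enter no count. Locus names are thus less certain than the positions of runs. Named runs are the 12 per direction with the largest summed difference and the 10 with the largest mean difference among brain-not-glia and glia-not-brain runs. The comparison with flanks was added after the profiles were plotted. Members and lists were chosen with earlier results of these data known. No sequence is shown, as no dm3 genome was used here.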

Additional observations from a re-analysis of the deposited data

How the results depend on the processing

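Every alternative used the averaged profiles, so none bears on variation between animals. No paired analysis was possible because the deposited columns are means over replicates, and for the same reason no replicate could be left out. Counts of fragments over 1 apart stayed within 1.5 times under no centring, centring over the shared fragments, equal SD, quantile normalization, fragments of 200 to 2000 bp, and leaving out X or the heterochromatic scaffolds. With a threshold of 2 they were 19742 higher in brain and 16631 higher in glia. Brain-higher runs numbered 735 without centring. Brain-not-glia runs numbered 105 with the sign of a running median over 5 fragments and 41 with level bounds of 3 and 0. The glia-not-brain count depended most on processing. It was 20 with the running median, 27 without centring, 142 after quantile normalization, 146 at equal SD, 45 with fragments of 200 to 2000 bp and 0 with bounds of 3 and 0. For 10 loci over 1 higher in brain the sign turned after quantile normalization: -0.55 at gsb/gsb-n, -0.27 at cad, -0.73 at oc, -0.52 at ems, -0.60 at hth, -0.23 at salm/salr, -0.997 at the Iroquois complex, -0.14 at nub/pdm2, -0.81 at esg and -0.14 at opa. At equal SD it turned for 7 of them: -0.20 at gsb/gsb-n, -0.24 at cad, -0.57 at oc, -0.47 at ems, -0.15 at hth, -0.69 at the Iroquois complex and -0.41 at esg. With a tolerance of 15 kb for recalled starts, a choice made after seeing the data, run, hth and ap also drop out. Then 32 of 46 loci were over 1 higher in brain and 2 in glia. Quantile normalization and equal SD remove the wider range of the brain profile by construction. The cause of the other shifts was not tested.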

Other observations

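Fragments scored in 1 of the 2 profiles take no part in the comparison. Glia alone was scored at 81502 fragments, which were short (median 193 bp, against 521 bp for the shared fragments) and had a median glial score of -0.32, with 11.4% at 2 or more, against 15.8% of the shared fragments. Brain alone was scored at 7990 fragments (median 224 bp) with a median brain score of 0.41, and 21.4% were at 2 or more, against 20.6% of the shared fragments. How many of these would have joined a run is not known.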
